A study of Mustela putorius furo with 8 samples.

Results

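ICAM1 and 5 further genes of the NF-kB response (NFKBIA, TNFAIP3, BIRC3, RELB and CCL20) were followed in ferret pancreatic ductal epithelial (PDE) cultures. The 6 genes were taken by symbol from the 27912 genes of the deposited matrices, and all 6 were present. They had been chosen by measured levels: ICAM1 for its loss in the CF libraries, and the others to ask whether that loss is shared. By their labels, cells were WT or carried a homozygous CFTR knockout (CFTR KO/KO), and CF stands throughout for the libraries labelled so. CFTR is the anion channel that is lost in cystic fibrosis. Pancreata of newborn ferrets had been digested, duct cells were passaged repeatedly, and the cells were seeded on coated inserts and polarized at an air-liquid interface (ALI). 10x Genomics single-cell RNA libraries were made at day 2, 5, 7 and 9 of ALI, 1 for each genotype and day. Each library pooled several animals, and the cell table does not tell them apart. Genotype, donors and library therefore cannot be told apart, no test was run, and no value has a replicate error.

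NF-kB is a family of transcription factor dimers that inhibitor proteins hold in the cytoplasm. Signals such as TNF or interleukin-1 switch on a kinase complex that marks the inhibitor for destruction, so that the dimers enter the nucleus and start transcription. Among their targets are the genes of the pathway's own brakes, which end the response. In epithelia the pathway is known for chemokines and adhesion molecules that recruit leukocytes. ICAM1, intercellular adhesion molecule 1, is such a molecule, a surface protein that leukocyte integrins bind. NFKBIA encodes the inhibitor IkB-alpha and TNFAIP3 the ubiquitin-editing enzyme A20, both brakes that NF-kB itself induces. BIRC3 encodes cIAP2, a ubiquitin ligase of TNF receptor complexes. RELB is the NF-kB subunit of the non-canonical branch. CCL20 is a chemokine for cells that carry the receptor CCR6.

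The retained cells were 6224, 5326, 4634 and 5416 in the WT libraries and 4499, 2750, 1607 and 2489 in the CF libraries, in day order, or 32945 in all. Their unique molecular identifiers (UMIs) summed to between 34735952 and 114585136 per library. The CF day 7 library held the fewest UMIs and the most cells under 3000 UMIs, 411. The median percent of mitochondrial UMIs per cell was 9.17, 6.63, 10.7 and 10.3 in WT and 7.04, 6.76, 5.71 and 5.65 in CF. Its part in the differences below was not tested. At most 14 retained cell barcodes were shared by any pair of libraries. Levels are given as CPM, the UMIs of a gene per 1000000 UMIs of the same cells, with exact 95% Poisson intervals in parentheses. Intervals cover counting error only. The methods of the study describe homozygous knockout ferrets as having neither transcript nor protein of CFTR, and the CF libraries went against this. They held 256, 621, 386 and 570 UMIs of CFTR at day 2, 5, 7 and 9, a level of 2.50 (2.20 to 2.83), 8.69 (8.02 to 9.40), 11.1 (10.0 to 12.3) and 11.4 (10.48 to 12.4) CPM. WT libraries had 6.57 (6.11 to 7.06), 16.9 (16.1 to 17.7), 15.9 (15.0 to 16.7) and 29.5 (28.3 to 30.6) CPM. CFTR was thus lower in CF on each day, at ratios of CF over WT of 0.381 (0.329 to 0.439), 0.514 (0.468 to 0.563), 0.701 (0.624 to 0.786) and 0.387 (0.353 to 0.424), but was not absent. It also exceeded the level in the SOX2-low part of the WT cells, defined below, at day 5 and 7, with ratios of 1.76 (1.51 to 2.06) and 1.18 (1.01 to 1.38). Which part of the gene these UMIs come from was not analysed here. CFTR therefore does not settle the CF label, on which every direction between genotypes below rests. Ductal markers were present in both genotypes, as the 10 genes of the list summed to between 8437 and 11262 CPM in WT and between 10135 and 10617 CPM in CF. The leukocyte list summed to between 22.1 and 118 CPM in WT and between 21.1 and 27.9 CPM in CF, and most of the WT day 9 value was CD74, at 99.1 CPM. Of its 10 genes 9 were in the matrices, and 5 of these (PTPRC, CD3E, CSF1R, CD79A and AIF1) had a mean under 1 CPM, with 4 UMIs of PTPRC over all libraries and 0 of CSF1R. The macrophage marker CD68 had 3.88, 5.48, 6.17 and 9.29 CPM in WT and 20.9, 7.61, 4.43 and 6.06 CPM in CF. The monocyte marker CD14 was highest in the WT library of day 2, at 15.1 CPM, and LYZ had 1557 UMIs in all. The part of these genes in the differences below was not tested. Of 8 endothelial markers 4 had no UMI, CDH5 among them, and the list summed to at most 0.317 CPM. The 8 fibroblast markers summed to between 2.30 and 5.79 CPM in WT and between 1.54 and 32.8 CPM in CF, and their part in the differences below was not tested.

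ICAM1 was low in every CF library. The gene (gene ID 101683044) is protein coding and lies at 33797107 to 33805788 on its sequence in assembly ASM1176430v1.1, for which the annotation table names no chromosome. In WT the level of ICAM1 was 103 (101 to 105), 183 (180.2 to 185), 184 (182 to 187) and 334 (329.8 to 338) CPM at day 2, 5, 7 and 9. In CF the level was 4.68 (4.27 to 5.12), 4.86 (4.36 to 5.39), 5.24 (4.51 to 6.06) and 6.96 (6.25 to 7.73) CPM. The lowest WT library thus lay far above the highest CF library. How many of all genes part the libraries so fully was not counted, for ICAM1 or for the genes below. These levels rested on 11769, 18496, 15304 and 28291 UMIs for WT, while CF had 479, 347, 182 and 348. WT exceeded CF by folds of 21.9 (20.02 to 24.1), 37.6 (33.9 to 42.0), 35.2 (30.4 to 40.97) and 48.0 (43.1 to 53.5) in day order, with exact conditional binomial intervals. In a library sum, fewer cells with a transcript and less transcript per cell cannot be told apart.

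The ICAM1 level at day 9 was 3.25 times (3.18 to 3.32) that at day 2 in WT and 1.49 times (1.29 to 1.71) in CF. Shares of the deposited classes, described below, also changed between these days, and their part was not tested. Ductal cells had 82.2 CPM at day 2 and 139 CPM at day 9 in WT, and 4.59 and 10.9 CPM in CF. Centroacinar progenitors had 256 and 451 CPM in WT, and 9.89 and 9.39 CPM in CF. CF centroacinar cells had 1.11 CPM at day 2 and 6.08 CPM at day 9. Single clusters were compared between their own first and last day with at least 50 cells, and these days differ between clusters. Of 15 SOX2-high WT clusters, also defined below, that had more than 1 such day, ICAM1 was higher on the last in 12. It was lower in 1 and had overlapping intervals in 2. Among SOX2-low WT clusters it was higher in 3 of 7, with overlapping intervals in 4. Among CF clusters it was higher in 1 of 15, with overlapping intervals in 14. Overlap also depends on counts, and no CF cluster held more than 167 ICAM1 UMIs. These counts of clusters therefore do not compare the change between sets.

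The other 5 genes differed by less, and BIRC3 differed in the opposite direction. A gene was called when its difference in log2(CPM + 1), CF minus WT, passed 2-fold in 1 direction at all 4 days. The added 1 CPM makes the differences of genes near that level too small. Of 9427 genes with a mean of at least 5 CPM over the 8 libraries, 120 were called lower, a background of 1.27%, and 99 were called higher, 1.05%. All 6 genes of the set entered this comparison. ICAM1 was the only one called lower and none was called higher. Since ICAM1 was chosen on this contrast, its call is a description, and its mean difference over the days, -4.86, stood at rank 13 from the lowest of the 9427 genes. The mean differences of the others were -2.00 for CCL20, -0.89 for NFKBIA, -0.65 for TNFAIP3, -0.45 for RELB and 0.71 for BIRC3. Beside these, the median difference of all genes was -0.00, -0.05, 0.13 and 0.08 at day 2, 5, 7 and 9.

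**Figure D1:**
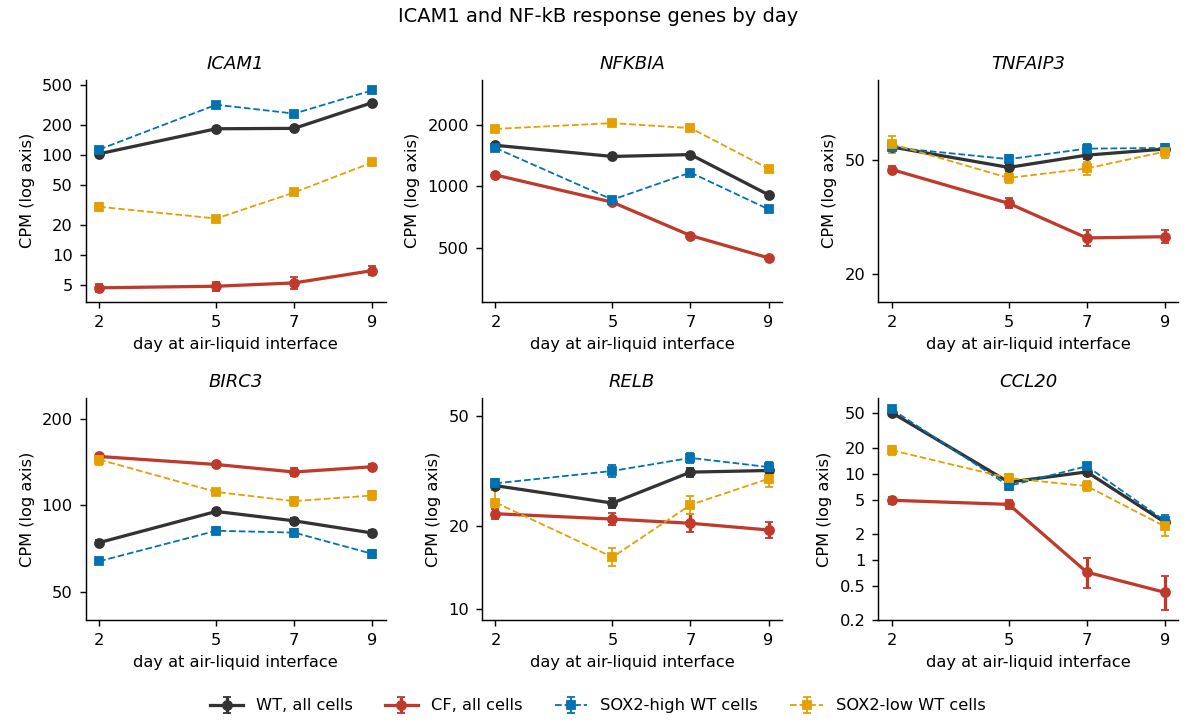
Level of each gene in CPM (log axis) against day at the air-liquid interface, for all WT cells, all CF cells and the WT cells of SOX2-high and SOX2-low clusters. Bars are 95% Poisson intervals. ICAM1 stayed between 4.68 and 6.96 CPM in CF and reached 334 CPM in WT, BIRC3 was higher in CF on every day, and NFKBIA was higher in SOX2-low than in SOX2-high WT cells.

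Among the brakes, NFKBIA (gene ID 101693829, 31810111 to 31813434 on its sequence) was lower in CF on all 4 days. WT libraries had 1583 (1575 to 1590.0), 1396 (1389 to 1403), 1426 (1418 to 1434) and 907 (900.2 to 913) CPM. CF libraries had 1133 (1127 to 1139.7), 833 (827 to 840.2), 573 (565 to 581) and 445 (439.6 to 451) CPM. The WT library of day 9 lay below the CF library of day 2, so the genotypes overlapped when days were pooled. Within a day, WT exceeded CF by folds of 1.40, 1.68, 2.49 and 2.04, the larger ones at day 7 and 9. NFKBIA was lower at day 9 than at day 2 in both genotypes, at 0.573 times (0.568 to 0.578) the day 2 level in WT and 0.393 times (0.388 to 0.399) in CF.

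TNFAIP3 (gene ID 101691448, 16455530 to 16470703 on its sequence) had 55.6, 47.1, 52.0 and 54.6 CPM in WT and 46.3, 35.3, 26.7 and 27.0 CPM in CF. The 4 WT values lay above the 4 CF values, with a narrow gap between WT day 5 and CF day 2. WT exceeded CF by folds of 1.20 (1.16 to 1.25), 1.34 (1.27 to 1.40), 1.95 (1.82 to 2.09) and 2.03 (1.91 to 2.16). The WT level at day 9 was 0.983 times (0.946 to 1.02) that at day 2, whereas the CF level was 0.582 times (0.547 to 0.618). Within single CF clusters the intervals overlapped in 15 of 15 between the cluster's own first and last day of at least 50 cells. Those days differ between clusters, and counts are smaller than in library sums.

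BIRC3 (gene ID 101692293, 726121 to 744365 on its sequence) went the other way. Its WT levels were 74.1 (72.6 to 75.7), 95.2 (93.3 to 97.1), 88.3 (86.2 to 90.3) and 80.0 (78.1 to 82.0) CPM. Its CF levels were 148 (146 to 150.3), 139 (136 to 141), 131 (127 to 134) and 136 (133 to 139.5) CPM. Every CF library lay above every WT library. CF over WT gave 2.00 (1.94 to 2.05), 1.46 (1.42 to 1.499), 1.48 (1.43 to 1.54) and 1.70 (1.65 to 1.76). No day passed 2-fold on the log2(CPM + 1) scale, and the highest difference, 0.99, was at day 2.

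RELB (gene ID 101671170, 13968394 to 13997625 on its sequence) had the smallest mean difference of the set. It had 27.9, 24.1, 31.2 and 31.7 CPM in WT and 22.1, 21.1, 20.4 and 19.3 CPM in CF, from at least 708 UMIs in each library. Every WT library lay above every CF library here too, and CF over WT gave 0.791 (0.749 to 0.835), 0.875 (0.820 to 0.934), 0.653 (0.600 to 0.709) and 0.609 (0.565 to 0.656).

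CCL20 (gene ID 101689988, 30426305 to 30429902 on its sequence) came closest to ICAM1. Each of these 5 genes is protein coding too. It had 50.9, 7.96, 10.45 and 2.72 CPM in WT and 4.91, 4.39, 0.720 and 0.420 CPM in CF. The CF values at day 7 and 9 rested on 25 and 21 UMIs. WT exceeded CF by folds of 10.4 (9.46 to 11.4), 1.81 (1.59 to 2.07), 14.5 (9.77 to 22.6) and 6.49 (4.15 to 10.7). Day 5 was thus the one day under 2-fold. Without it 2 genes of the set, ICAM1 and CCL20, passed 2-fold at the other 3 days, as did 131 of the 9427 genes, 1.39%. For CCL20 this was fixed in advance, since day 5 was left out for its miss there. The 1.39% does not leave out each gene's own weakest day and is no matching background. CCL20 was lower at day 9 than at day 2, at 0.0536 times (0.0468 to 0.0611) the day 2 level in WT and 0.0856 times (0.0525 to 0.132) in CF, whereas ICAM1 was higher at day 9 in both.

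**Figure D2:**
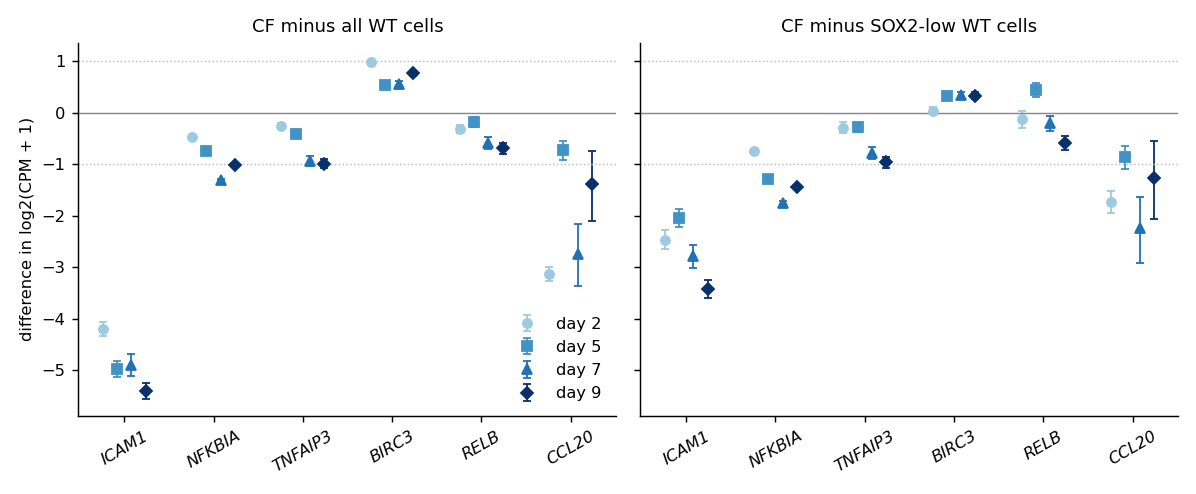
Difference in log2(CPM + 1) for each gene at day 2, 5, 7 and 9, as CF minus all WT cells (left) and as CF minus WT cells of SOX2-low clusters (right). Bars are 95% counting intervals of the ratio, and dotted lines mark 2-fold. ICAM1 lies between -5.39 and -4.19 on the left and between -3.42 and -2.04 on the right, and BIRC3 lies at or above 0.04 in both.

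The loss of ICAM1 was next followed into the deposited classes, which the authors had named within each genotype. There were 12 pairs of a class and a day with at least 50 cells in both libraries. ICAM1 was lower in CF in 12 of 12, between 11.6-fold (ductal, day 7) and 93.6-fold (centroacinar, day 5). Such counts of pairs, here and for the genes below, rest on counting intervals alone, and the pairs share libraries. How many of all genes reach them was not counted. In WT the centroacinar progenitors had 256, 415, 341 and 451 CPM, the centroacinar cells had 334, 221 and 468 CPM at day 5, 7 and 9, and the ductal cells had 82.2, 85.9, 91.3 and 139 CPM. The progenitors were highest at day 2, 5 and 7, while at day 9 their level of 451 (439.7 to 462) CPM overlapped that of the centroacinar cells, 468 (461 to 475). At day 2 the acinar cells, 69.2 (63.2 to 75.6) CPM, and proliferating acinar cells, 69.4 (65.3 to 73.7) CPM, overlapped and lay below the ductal cells. The lowest WT class was the proliferating ductal one, with 11.99 (9.42 to 15.1) CPM at day 5 and 24.8 (18.1 to 33.1) CPM at day 7.

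In CF the order of the classes differed from WT. Centroacinar progenitors had 9.89, 9.04, 10.8 and 9.39 CPM of ICAM1, ductal cells had 4.59, 4.09, 7.86 and 10.9 CPM and centroacinar cells had 3.57, 2.71 and 6.08 CPM at day 5, 7 and 9. Centroacinar cells, above ductal cells in WT on these days, had the lowest CF values. Intervals of the progenitors and ductal cells overlapped at day 7 and 9, and those of the ductal and centroacinar cells at day 5.

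The other genes differed between classes in ways that the library sums hide. NFKBIA was lower in CF in 11 of the 12 pairs and higher in 1, the centroacinar cells of day 5, with 924 CPM in CF and 868 CPM in WT. Its gap was widest in ductal cells at day 7, where WT had 1796 CPM and CF 469 CPM, a fold of 3.83. TNFAIP3 was lower in CF in 11 of 12 pairs, and in the remaining one, ductal cells of day 5, CF over WT was 0.942 (0.865 to 1.03). RELB was lower in 11 of 12, and in the progenitors of day 2 it was 0.873 (0.743 to 1.02). RELB passed 2-fold in ductal cells at day 9, with 36.6 CPM in WT and 11.2 CPM in CF.

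BIRC3 was higher in CF in 9 of the 12 pairs. In centroacinar progenitors it had 42.6, 53.0, 48.0 and 45.6 CPM in WT and 211, 171, 170.5 and 174 CPM in CF, ratios of 4.96, 3.22, 3.55 and 3.82. In ductal cells of day 5, 7 and 9 the ratios were 1.04 (0.985 to 1.09), 1.05 (0.971 to 1.13) and 1.01 (0.938 to 1.097), each interval holding 1, and at day 2 the ratio was 1.597 (1.55 to 1.65). CCL20 was lower in CF in 11 of 12 pairs. It had no UMI in the 176 CF ductal cells of day 7, where WT had 6.20 CPM, and the interval of CF over WT reached up to 0.0960.

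**Figure D3:**
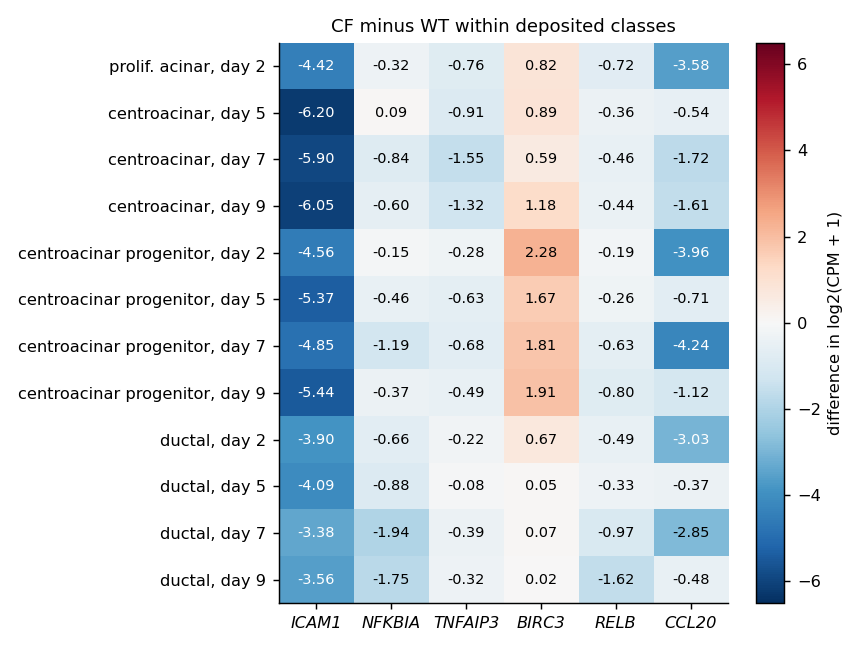
Difference in log2(CPM + 1), CF minus WT, for each gene (columns) within each deposited class and day that had at least 50 cells in both libraries (rows). Blue is lower and red is higher in CF. ICAM1 was at -3.38 or lower in every row, whereas BIRC3 ran from 0.02 in ductal cells of day 9 to 2.28 in centroacinar progenitors of day 2.

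SOX2, a transcription factor of foregut-derived epithelia, parts the WT clusters. Of the 41 WT clusters, 12 had under 10 CPM of SOX2 (0.806 to 4.87) and are called SOX2-low, and 29 had 50.6 CPM or more and are called SOX2-high. The 30 CF clusters had at most 1.08 CPM. Neither set is a group of the study, and since the clusters were made from these same genes no test between them is given. SOX2-low clusters held 892, 1801, 1276 and 1510 WT cells at day 2, 5, 7 and 9, or 14.3%, 33.8%, 27.5% and 27.9% of the library, and 9 of the 12 clusters carried the ductal name.

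ICAM1 was lower in SOX2-low than in SOX2-high WT cells of the same library on every day. SOX2-low cells had 30.3 (27.5 to 33.2), 23.1 (21.7 to 24.5), 42.1 (39.8 to 44.5) and 84.1 (80.6 to 87.7) CPM. SOX2-high cells had 113, 318, 259 and 443 CPM. The SOX2-low level was 26.7%, 7.27%, 16.2% and 19.0% of the SOX2-high level. Both sets had more ICAM1 at day 9 than at day 2. WT cells of any cluster with no SOX2 UMI and at least 10000 UMIs were also taken (1512, 2397, 1951 and 2074 cells). Their ICAM1 level was 74.9, 72.1, 111 and 189 CPM. On each day they outnumbered the cells of SOX2-low clusters, so they include cells of SOX2-high clusters. With all UMIs counted, a SOX2 UMI was found in 81.1%, 71.4%, 70.2% and 72.4% of SOX2-high WT cells. The level of this mixed set is thus not that of SOX2-poor cells alone.

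CF cells had less ICAM1 than SOX2-low WT cells too. SOX2-low WT cells exceeded CF by folds of 6.47 (5.68 to 7.38), 4.76 (4.21 to 5.39), 8.04 (6.87 to 9.44) and 12.1 (10.8 to 13.6) at day 2, 5, 7 and 9. In this comparison 37 of the 9427 genes were called lower, a background of 0.392%, and 94 were called higher, 0.997%. ICAM1 was again the only one of the 6 genes called lower and none was called higher. Without day 5 CCL20 was called too, under a rule that called 46 of all 9427 genes or 0.488%. Without day 2 it was NFKBIA that joined ICAM1, under a rule that called 49 of all genes or 0.52%. Each day left out was the only one on which that gene fell short on the log2(CPM + 1) scale, so these calls are descriptions. The mean difference of ICAM1 was -2.68 and its rank 15 from the lowest. A lower ICAM1 level was thus shared by SOX2-low WT cells, and CF cells lay several-fold below them. The comparisons with all WT and with SOX2-low WT cells share the CF libraries and part of the WT cells.

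The median UMI count per cell was 13342, 21163, 19387 and 15835 in SOX2-low cells and 16686, 14951, 14679 and 14566 in SOX2-high cells. Within the ductal class alone, SOX2-high cells had 93.8, 201, 163 and 255 CPM of ICAM1, SOX2-low cells had 30.7, 23.9, 40.3 and 81.1 CPM and CF cells had 4.59, 4.09, 7.86 and 10.9 CPM. The order SOX2-high, SOX2-low, CF held on each day in cells of 1 class name. CF over SOX2-low ductal cells gave 0.150 (0.129 to 0.174), 0.171 (0.131 to 0.220), 0.195 (0.143 to 0.260) and 0.134 (0.104 to 0.171).

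The brake NFKBIA did not follow ICAM1 across the WT cells. SOX2-low cells had 1905, 2032, 1921 and 1218 CPM and SOX2-high cells 1535, 858, 1165 and 770.4 CPM, so it was higher in SOX2-low cells by 1.24, 2.37, 1.65 and 1.58 times. Within the ductal class the ratio was 1.11 (1.099 to 1.13), 2.05 (2.02 to 2.08), 1.36 (1.34 to 1.38) and 1.05 (1.03 to 1.07), close to 1 at day 9. SOX2-low WT cells exceeded CF by folds of 1.68, 2.44, 3.35 and 2.73, more than all WT cells did. TNFAIP3 differed little between the WT sets, with a SOX2-low to SOX2-high ratio of 1.03 (0.954 to 1.11), 0.859 (0.811 to 0.910), 0.852 (0.798 to 0.909) and 0.971 (0.911 to 1.03).

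For BIRC3 the SOX2-low WT cells of a library were above the SOX2-high cells, but within the ductal class this held at day 2 alone. They had 144, 111, 103 and 108 CPM, and SOX2-high cells had 63.8, 81.5, 80.3 and 67.7 CPM. CF over SOX2-low WT cells gave 1.03 (0.980 to 1.07), 1.25 (1.20 to 1.29), 1.26 (1.21 to 1.32) and 1.26 (1.20 to 1.32), so that the levels overlapped at day 2 and CF was higher at day 5, 7 and 9. In ductal cells alone the SOX2-low to SOX2-high ratio was 2.17 (2.05 to 2.29), 0.973 (0.926 to 1.02), 0.797 (0.753 to 0.844) and 0.797 (0.747 to 0.850), that is higher at day 2, overlapping at day 5 and lower at day 7 and 9. CF over SOX2-low ductal cells gave 0.895 (0.853 to 0.940), 1.05 (0.992 to 1.105), 1.16 (1.07 to 1.26) and 1.102 (1.01 to 1.20). RELB in SOX2-low cells was 0.852, 0.487, 0.676 and 0.907 times the SOX2-high level. CF over SOX2-low WT cells for RELB gave 0.911 (0.814 to 1.02), 1.37 (1.26 to 1.504), 0.858 (0.771 to 0.954) and 0.652 (0.593 to 0.718), which was higher at day 5, lower at day 7 and 9, and overlapping at day 2. CF over SOX2-low ductal cells for RELB gave 0.839 (0.745 to 0.946), 1.22 (1.07 to 1.40), 0.708 (0.573 to 0.869) and 0.368 (0.284 to 0.471), so that CF was lower at day 2 as well and lower still at day 9. CCL20 was at 18.7, 8.86, 7.16 and 2.44 CPM in SOX2-low cells and 55.6, 7.19, 12.2 and 2.85 CPM in SOX2-high cells, so the SOX2-low cells were lower at day 2 and 7 and higher at day 5. In ductal cells alone the day 5 gap was far wider, with 9.96 CPM in SOX2-low and 0.236 CPM in SOX2-high cells, a ratio of 42.3 (18.0 to 131). The direction at day 7 turned there, with 7.47 CPM in SOX2-low and 4.43 CPM in SOX2-high cells, a ratio of 1.69 (1.29 to 2.23). SOX2-low WT cells exceeded CF in CCL20 by folds of 3.803, 2.02, 9.95 and 5.81. CF over SOX2-low ductal cells for CCL20 gave 0.264 (0.225 to 0.311), 0.486 (0.376 to 0.621), 0 (0 to 0.0799) and 0.556 (0.228 to 1.18), an interval that held 1 at day 9. At day 5 the CF ductal cells, at 4.84 CPM, lay between the SOX2-low and the SOX2-high ductal cells.

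Medians over single clusters gave the same order for ICAM1. SOX2-high WT clusters ran from 54.0 CPM (cluster 37) to 692 CPM (cluster 16) with a median of 225. SOX2-low WT clusters ran from 15.6 CPM (cluster 27) to 145 CPM (cluster 17) with a median of 31.0. The WT sets overlapped, as 8 of 12 SOX2-low clusters lay below every SOX2-high one. In turn 19 of 29 SOX2-high clusters lay above every SOX2-low one. CF clusters ran from 0.283 CPM (cluster 1, 3 UMIs in 733 cells) to 24.8 CPM (cluster 29) with a median of 3.34. All 30 CF clusters lay below every SOX2-high WT cluster, and 28 of 30 lay below every SOX2-low one. The other 2 were cluster 21 at 23.2 (10.0 to 45.7) CPM and cluster 29 at 24.8 (12.8 to 43.3) CPM, which rested on 8 and 12 UMIs. Cluster 21 was one of 7 clusters whose cells held few UMIs, and cluster 29 held 47 cells. How many of all genes part the sets of clusters to such an extent was not counted, for ICAM1 or for the genes below. The clusters come from the same libraries on which ICAM1 was chosen.

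The SOX2-low clusters were uneven among themselves. Cluster 17, a ductal one, had 145 CPM of ICAM1, and cluster 30, a centroacinar one, had 89.4 CPM. Cluster 0, the most numerous with 1117 ductal cells, had 23.0 CPM. Cluster 17 also had the least NFKBIA of the 12, 698 CPM, where cluster 0 had 2312 CPM. Without cluster 17 the SOX2-low level of ICAM1 was 29.9, 21.6, 31.1 and 63.2 CPM, still above CF on each day.

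**Figure D4:**
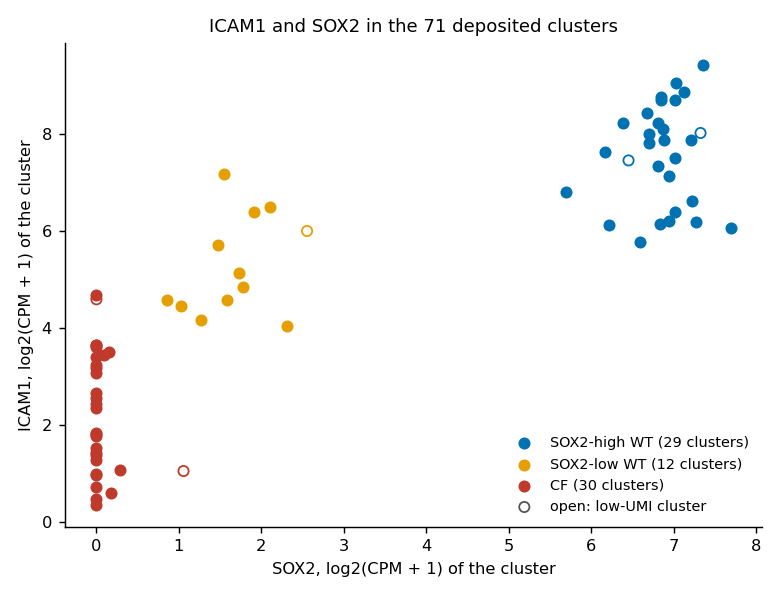
ICAM1 against SOX2 in the 71 deposited clusters: 29 SOX2-high WT, 12 SOX2-low WT and 30 CF. Axes are log2(CPM + 1), and open circles are the 7 clusters of few UMIs per cell. CF clusters gather at the lower left, SOX2-low WT clusters between 15.6 and 145 CPM of ICAM1, and SOX2-high WT clusters at the upper right.

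The other genes overlapped widely between the 3 sets of clusters. The median NFKBIA of CF clusters was 728 CPM, lower than the 1259.7 of SOX2-high and 1546 of SOX2-low WT clusters, yet CF cluster 20 reached 2120.4 CPM. The same cluster had the highest TNFAIP3, RELB and CCL20 of all CF clusters, 83.7, 38.3 and 19.0 CPM, while its ICAM1 was 4.11 (2.35 to 6.67) CPM. BIRC3 had medians of 62.3, 108 and 131 CPM in SOX2-high WT, SOX2-low WT and CF clusters, and 23 of 29 SOX2-high clusters lay below every CF cluster. Of the others, SOX2-high cluster 35, at 343 CPM, lay above every CF cluster. It was one of the 7 clusters of few UMIs, as was SOX2-high cluster 20 at 147 CPM. SOX2-high clusters 2, 14, 23 and 36, not among those 7, had 133, 147, 121 and 115 CPM. CCL20 ran from 0.115 to 93.7 CPM over SOX2-high clusters and from 0 to 19.0 CPM over CF clusters.

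**Figure D5:**
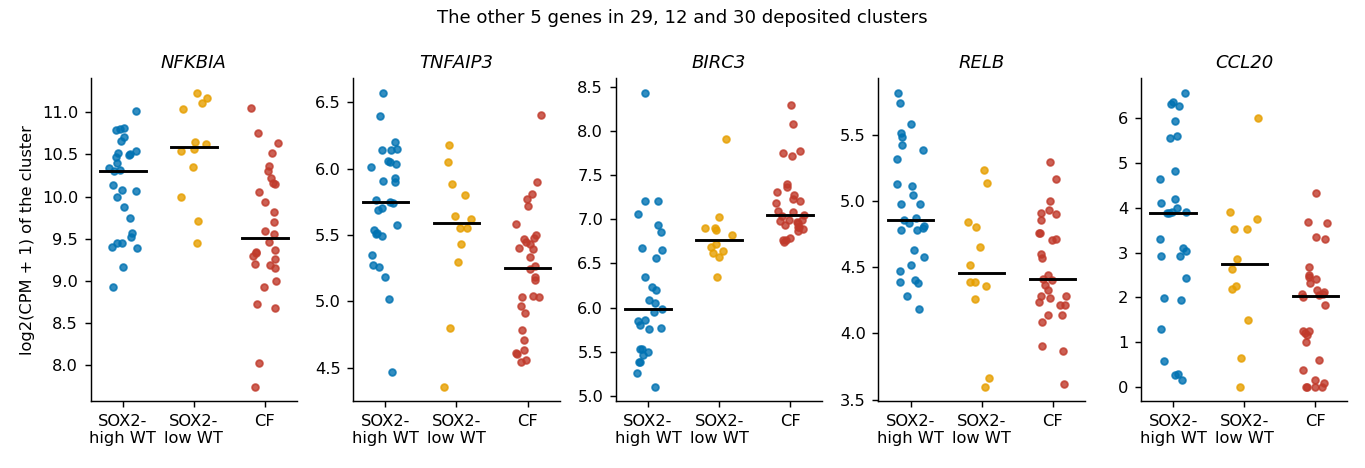
Log2(CPM + 1) of the other 5 genes in each deposited cluster, by set (29 SOX2-high WT, 12 SOX2-low WT and 30 CF clusters), with 1 point a cluster and the median as a bar. The sets overlap for each gene, and the CF median is the lowest for NFKBIA, TNFAIP3, RELB and CCL20 and the highest for BIRC3.

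To compare shares, every cell was thinned to 3000 UMIs, and cells below that were left out (80, 150, 73 and 136 in WT, 39, 45, 411 and 224 in CF). A UMI of ICAM1 was then found in 23.3%, 39.5%, 40.6% and 56.5% of cells in WT at day 2, 5, 7 and 9. In CF it was found in 0.987%, 1.29%, 1.25% and 2.03%. SOX2-low WT cells had shares of 7.07%, 6.90%, 11.3% and 21.4%, and SOX2-high WT cells 26.0%, 56.9%, 51.9% and 69.9%. At day 9 the exact Clopper-Pearson intervals were 1.49% to 2.70% in CF and 19.3% to 23.6% in SOX2-low cells. Without thinning, the WT shares were 66.8%, 72.3%, 79.0% and 86.5% and the CF shares 8.09%, 9.85%, 8.21% and 10.8%. Median depths were 16357, 16862, 15899 and 14949 UMIs in WT and 17833, 22794, 23427 and 19941 in CF. No class of these cultures is known to lack ICAM1, so a background share from free RNA could not be measured for it. For SOX2, the thinned share was 0.898%, 0.111%, 0.393% and 0.343% in SOX2-low cells and 30.9%, 29.8%, 25.6% and 30.04% in SOX2-high cells.

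After thinning, shares of cells with NFKBIA and CCL20 were lower in CF by a smaller factor than that of ICAM1 on each day, and the share with BIRC3 was higher. A BIRC3 UMI was found in 19.0%, 23.2%, 22.9% and 19.3% of cells in WT after thinning and in 33.6%, 33.2%, 30.2% and 32.5% in CF. Unthinned, BIRC3 reached 62.1%, 69.3%, 66.6% and 58.4% of cells in WT, whereas CF had 84.4%, 88.4%, 68.2% and 75.8%. NFKBIA was found in 95.0%, 86.7%, 88.7% and 79.3% of thinned WT cells, whereas CF had 89.6%, 78.7%, 67.2% and 59.1%. Unthinned, WT reached 99.5%, 98.1%, 98.7% and 96.8% and CF 99.1%, 98.9%, 83.2% and 89.6%. CCL20 came from few cells even at day 2, with a thinned share of 6.90% in WT and 1.21% in CF, and an unthinned share of 15.8% and 4.001%. At day 7 and 9 the thinned CF share rested on 1 cell each, at 0.0836% (0.00212% to 0.465%) and 0.0442% (0.00112% to 0.246%). WT had 1.14% and 0.511% on those days. With 1 cell the factor is too uncertain to set beside that of ICAM1.

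The remaining genes of the pathway were examined by list. Of 9 other NF-kB subunits and IkB proteins all 9 passed the filter of 5 CPM, and none was called against all WT cells. Their median difference was -0.18, -0.21, 0.00 and -0.11 at day 2, 5, 7 and 9. Of 19 upstream kinases and adaptors 16 passed and none was called, with medians of 0.12, 0.08, 0.17 and 0.08. Of 10 negative regulators, all of which passed, 1 was called lower and none higher, and the median was -0.06, -0.11, -0.01 and -0.23. The called gene was TNIP3, which encodes an A20-binding inhibitor, with 69.9, 5.93, 13.8 and 5.99 CPM in WT and 9.18, 2.24, 1.35 and 0.940 CPM in CF. Like CCL20, it was highest at day 2 in both genotypes.

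Of 24 listed ligands and receptors, 22 were in the matrices and 14 passed, of which 1 was called higher and none lower, with medians of -0.05, 0.01, -0.05 and -0.15. The called gene was IL1R1, the interleukin-1 receptor, at 4.16, 8.70, 5.89 and 5.07 CPM in WT and 20.2, 24.1, 18.1 and 15.0 CPM in CF. Under alternatives against all WT cells, IL1A of this list was called lower with equal weight for each class and without day 2. Those settings called 1.61% and 1.68% of all genes lower. Of 35 listed other targets, 31 were in the matrices and 16 passed. Of these, CSF3, the granulocyte colony-stimulating factor gene, was called lower, and none was called higher. CSF3 had 27.7, 19.5, 30.5 and 28.0 CPM in WT and 1.72, 1.96, 1.81 and 2.10 CPM in CF, a mean difference of -3.23. The median of these 16 targets was 0.27, -0.31, -0.21 and -0.18. In ductal cells alone CSF3 and TNIP3 lost their calls, and the list genes called were IL18, an interleukin, lower, and BCL2A1, a BCL2 relative, and IL1R1 higher. In that comparison 1.76% of all genes were called lower and 1.65% higher. TNIP3 and IL1R1 also lost theirs with a pseudocount of 5 CPM.

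Against SOX2-low WT cells the calls among the lists were others. CSF3, TNIP3 and IL1R1 were not called, with mean differences of -0.30, -1.17 and 0.49. CSF3 was called lower, however, against WT cells with no SOX2 UMI and at least 10000 UMIs, which include cells of SOX2-high clusters. That comparison called 0.891% of all genes lower. TNIP3 was called lower against SOX2-low WT cells without day 5, the only day on which it fell short of 2-fold. IER3, an early-response gene, was the 1 list gene called lower, and no list gene was called higher. Under alternatives, PTGS2 was called higher in CF cells of all classes against ductal SOX2-low cells, without WT cluster 17 and without day 9. These settings called 1.03%, 1.35% and 1.53% of all genes higher. Without day 2 LTB was called higher and PLAU lower, beside 1.5% and 0.52% of all genes. IER3 had 3484, 2464, 2502 and 1773 CPM in WT and 1516, 1515, 797 and 559.5 CPM in CF, and it differed from SOX2-low WT cells by -1.44, -1.15, -2.11 and -1.56. IER3 lost its call with equal weight for each class, where no list gene was called lower. It also lost it in ductal cells alone, where RDX was lower and BCL2A1 and ICAM3 were higher, beside 0.743% of all genes lower and 1.08% higher. The mean difference of CSF3 in this comparison stood beside -2.68 for ICAM1.

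Relatives and partners of ICAM1 were not called in either comparison over all cells. Under alternatives against SOX2-low WT cells, however, ICAM3 was called higher in ductal cells alone, without WT cluster 17 and without day 9. Those settings called 1.08%, 1.35% and 1.53% of all genes higher. Of 14 listed genes 7 passed (ICAM3, CD58, ALCAM, F11R, EZR, RDX and MSN), with medians of 0.01, -0.13, 0.30 and 0.29 against all WT cells. EZR, which encodes ezrin, a linker of membrane proteins to actin, had a mean difference of 0.09. Of 9 listed genes of the interferon-gamma response, a pathway that also induces ICAM1, 8 passed and none was called, with medians of 0.27, 0.32, 0.36 and 0.18. In the annotation table ICAM5 and ICAM4 precede ICAM1 and MRPL4 follows it, though the table gives no sequence name that would place them together. ICAM4 had between 0.768 and 1.20 CPM in WT and between 0.0586 and 0.15997 CPM in CF, and ICAM5 had at most 0.340 CPM in any library. ICAM4 was thus lower in CF on each day, from 366 UMIs in all. Both genes were under the filter of 5 CPM and could not be called. MRPL4, a mitochondrial ribosomal protein gene, had between 14.1 and 19.2 CPM in WT and between 14.3 and 17.1 CPM in CF.

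The genes most like ICAM1 over the 41 WT clusters, by Pearson correlation of log2(CPM + 1) among 7810 genes with a mean of at least 10 CPM, were BAAT (0.95), LOC101693176 (0.95), SLC46A3 (0.95), SCEL (0.93), ABHD5 (0.93) and ZNF24 (0.92). The clusters share libraries and differ in depth and number of cells, and the values are a description. In CF clusters the same correlations were 0.69 for BAAT, 0.76 for LOC101693176, 0.83 for SCEL, 0.86 for ABHD5 and 0.22 for ZNF24. BAAT, a bile acid conjugating enzyme gene, had 37.4, 56.3, 76.4 and 104 CPM in WT and 14.6, 21.3, 20.2 and 16.9 CPM in CF. SCEL, which encodes sciellin of the cornified envelope, had 43.3, 55.7, 64.0 and 107 CPM in WT and 14.4, 18.7, 21.6 and 24.7 CPM in CF. Both were higher in WT on each day, by smaller folds than ICAM1. SLC46A3 differed in log2(CPM + 1), CF minus WT, by -1.49, -1.51, -0.88 and -1.57. The rest differed less, LOC101693176 by -0.27, -0.42, -0.24 and -0.53 and ZNF24 by -0.49, -0.18, -0.04 and -0.21. ABHD5 differed by 0.02, -0.45, -0.26 and -0.87.

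None of the other 5 genes was close to ICAM1 by this measure. Over the 41 WT clusters the correlation with ICAM1 was 0.32 for RELB, 0.25 for TNFAIP3, -0.17 for CCL20, -0.35 for BIRC3 and -0.77 for NFKBIA. For NFKBIA it was -0.84 within the 29 SOX2-high clusters, -0.76 within the 12 SOX2-low clusters and -0.60 within the 30 CF clusters. The sign for BIRC3 and RELB changed between sets, at -0.17, 0.44 and 0.49 for BIRC3 and -0.11, 0.42 and -0.31 for RELB in the same order of sets. For SOX2 itself it was 0.72 over all WT clusters and 0.11 within the SOX2-high ones.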

How the data were processed

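Reads of 8 ferret PDE libraries had been aligned and counted by the authors with Cell Ranger 5.0.1 on assembly ASM1176430v1.1, and the deposited matrices hold UMI counts per gene and barcode. Per the study's methods, the authors then filtered cells in Seurat (R 4.1.2) by genes and mitochondrial percent, removed doublets and clustered and named the cells within each genotype. Their deposited cell table gives cluster, class, UMI count and percent of mitochondrial UMIs, and no doublet caller was run again. Retained cells were joined to the matrices by barcode. Deposited normalized values and lineage scores were not used.

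UMI counts were summed per library, class, cluster and SOX2 set (WT clusters under 10 CPM of SOX2, or not), and scaled to CPM with Python 3.11.15, pandas 2.3.3 and SciPy 1.17.1. Differences were taken on log2(CPM + 1). Intervals are exact 95% Poisson, conditional binomial or Clopper-Pearson intervals, and UMIs of 1 cell are not independent cultures. With 1 library of pooled animals per genotype and day, and days not being replicates of 1 group, no test was run. Called genes had a mean of at least 5 CPM over the 8 libraries and differed at least 2-fold in 1 direction at all 4 days. Genes were named by rule: the 6 members, list genes of at least 10 CPM that were called (at most 4 a list and direction) or on which a count of at most 5 rested, the 6 genes most like ICAM1, SOX2 and CFTR. Neighbours in the annotation and the members of tested lists were named beside these. The members, lists and the SOX2 limit were chosen with earlier results of these data known. Of 27912 genes, 27467 matched the RefSeq annotation table by symbol. Alternatives used edgeR 4.0.16 and DESeq2 1.42.0 scaling, other pseudocounts, filters, cells and classes.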

Additional observations from a re-analysis of the deposited data

Results flagged for a closer look

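In library sums, BIRC3 differed in opposite directions between day 2 and day 9 in the WT and CF libraries. Its CPM at day 9 was 1.08 times (1.05 to 1.12) that at day 2 in WT and 0.921 times (0.895 to 0.948) in CF. RELB did likewise, at 1.13 times (1.08 to 1.19) in WT and 0.873 times (0.809 to 0.942) in CF. Both were singled out because the counting intervals lay on opposite sides of 1. Within single clusters, between their own first and last day of at least 50 cells, intervals mostly overlapped. For BIRC3 they did in 13 of 15 SOX2-high WT, 7 of 7 SOX2-low WT and 13 of 15 CF clusters. For RELB they did in 13 of 15, 6 of 7 and 15 of 15. Such overlap also depends on the smaller counts of a cluster. Each ratio compares 1 library with another, and the difference between genotypes was not tested.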

How the results depend on the processing

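ICAM1 was lower in CF under every alternative tried, in 36 of 36 values against all WT cells (-5.51 to -3.38) and in 44 of 44 against SOX2-low WT cells (-4.58 to -1.51), all as differences in log2(CPM + pseudocount). A pseudocount of 5 CPM gave -3.48, -4.25, -4.21 and -4.82 against all WT cells at day 2, 5, 7 and 9, and -1.87, -1.51, -2.20 and -2.90 against SOX2-low WT cells. Equal weight for each class gave -4.38, -5.41 and -5.18 against all WT cells at day 2, 5 and 9, and -2.29 and -3.24 against SOX2-low WT cells at day 5 and 7. Ductal cells alone gave -3.90, -4.09, -3.38 and -3.56 against all WT cells, and -2.29, -2.22 and -2.79 against SOX2-low WT cells at day 5, 7 and 9. Against SOX2-low WT cells at day 2 and 5, only the ductal class had at least 50 cells on both sides. Equal weight and ductal cells alone are thus the same comparison there, and the 44 values count it under both names. WT cells with no SOX2 UMI and at least 10000 UMIs, taken in place of the SOX2-low clusters, gave -3.74, -3.64, -4.17 and -4.58. This set also held cells of SOX2-high clusters. Leaving out WT cluster 17, chosen after seeing the data as were the runs without the 7 clusters of few UMIs and without CF clusters 21 and 29, gave -2.36 and -3.01 at day 7 and 9.

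Of the 6 genes, 2 were called lower (ICAM1 and CCL20) with all deposited barcodes against all WT cells, beside 123 or 1.3% of the 9427 genes. The same 2 were called lower in CF cells of all classes against ductal SOX2-low WT cells, beside 40 or 0.424%. With the ductal class alone on both sides ICAM1 was the only one called, beside 70 or 0.743%. Leaving out each day in turn gave between 1 and 2 in both comparisons, where 1.33% to 1.7% of all genes were called lower against all WT cells and 0.424% to 0.541% against SOX2-low WT cells. BIRC3 kept its sign in 42 of 44 values against SOX2-low WT cells, and the other genes kept theirs in all values. BIRC3 had -0.16 at day 2 under equal weight for each class and in ductal cells alone, which are the same comparison on that day.

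Over all genes, a filter of 1 CPM gave 200 lower and 153 higher against all WT cells and 67 lower against SOX2-low WT cells. A filter of 20 CPM gave 53 lower and 46 higher against all WT cells and 17 lower and 48 higher against SOX2-low WT cells, and a pseudocount of 5 CPM gave 59 and 61 higher. For counts over all genes and the lists, other choices of cells were added after seeing the data. Ductal cells alone gave 156 higher against all WT cells and 70 lower against SOX2-low WT cells, and WT cells with no SOX2 UMI gave 84 lower. Days left out in turn gave 96 to 144 higher (1.02% to 1.53%) against SOX2-low WT cells. Of the genes in the 7 pathway lists, 0 were lower and 0 higher against all WT cells with a filter of 20 CPM, 1 was lower and 0 higher with a pseudocount of 5 CPM, and 2 were lower against SOX2-low WT cells with a filter of 1 CPM. Leaving out a day, with the shares of all genes given above, gave 2 to 4 lower against all WT cells, and 1 to 2 lower and 0 to 2 higher against SOX2-low WT cells. The cause of these shifts was not tested. All deposited barcodes were not run against SOX2-low WT cells, since only retained cells have a cluster. No paired analysis was run, since the pairs of libraries that share a day differ in day and are not replicates of 1 group. Depth limits the CF values of CCL20 at day 7 and 9 and of single CF clusters.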

Other observations

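A pair of further list genes, chosen after their values were seen, were lower in CF than in all WT cells without being called and differed from SOX2-low WT cells in both directions over the days. NFKBIZ, an inducible nuclear IkB protein, had 134, 149, 137 and 153 CPM in WT and 88.1, 63.4, 58.8 and 59.9 CPM in CF, a mean difference of -1.09 against all WT cells and differences of 0.37, -0.02, -0.06 and -0.22 against SOX2-low WT cells at day 2, 5, 7 and 9. Without day 2, the only day on which it fell short of 2-fold, it was called lower against all WT cells. IFNGR2, a chain of the interferon-gamma receptor, had between 230.3 and 302 CPM in WT and between 123 and 158 CPM in CF, a mean difference of -0.999 against all WT cells and differences of 0.15, 0.33, -0.12 and -0.26 against SOX2-low WT cells.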
